A study of Mus musculus with 48 samples.

Results

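The genes described here are the cytochrome P450 genes of families 1 to 3 other than the Cyp2b subfamily, taken as every gene symbol of the array annotation that begins with Cyp1, Cyp2 or Cyp3 followed by a letter and a number. The rule found 40 genes of the 16593 named on the array, carried by 56 probes and falling into 13 subfamilies, of which Cyp2c (10 genes), Cyp2d (8), Cyp3a (6) and Cyp2j (5) were the largest. Illumina bead arrays measured RNA of male mice aged 3 months in liver, in gastrocnemius muscle and in white fat of the epididymal depot (eWAT). All mice were on the C57Bl/6J background. FGF21-Tg mice carry a transgene for the hormone FGF21 that the apoE promoter drives in hepatocytes, and were set against wild-type controls (WT). Another group was wild-type mice on caloric restriction (CR) for 2 weeks. The remaining groups were wild-type mice fasted for 24 hr (Fast) and wild-type mice fed ad libitum (AL). The labels give the restriction as 40%. In the methods 40% is the share of earlier food intake that was given, and a figure legend of the paper words the restriction accordingly. The cut in food was therefore deeper than the label reads. The methods describe replicates of 1 to 3 pooled mice, so each replicate below is an array.

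Enzymes of these families are haem proteins of the endoplasmic reticulum. They take electrons from P450 reductase and cytochrome b5 and put oxygen into drugs, steroids, bile acids, retinoids and fatty acids. In mouse liver the nuclear receptors PXR (Nr1i2) and CAR (Nr1i3) regulate many Cyp2c and Cyp3a genes, the aryl hydrocarbon receptor Ahr regulates the Cyp1 genes, and the pulses of growth hormone in males set the level of sex-dependent genes such as Cyp2d9. Many of the enzymes are zonated, with Cyp1a2, Cyp2e1 and Cyp2c29 placed around the central vein and Cyp2f2 towards the portal tract.

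Of 48 arrays, 32 were used, because tissue markers went against labels on chips 2 and 3, which hold the other 16. In liver this left 3 FGF21-Tg, 3 WT, 2 CR, 3 Fast and 3 AL arrays, with 41.98 to 45.6% of probes detected and median intensities of 182.21 to 264.84. Signals are log2 values after background correction and quantile normalization, and run from 4.53 to 16.08 in liver. Fgf21 lay at 15.97, 15.97 and 15.84 on the FGF21-Tg arrays, against 7.69, 7.68 and 9.11 on the WT arrays, which fits the labels. Summed hepatocyte markers lay between 18.50 and 18.64 (log2) on all liver arrays, although the Alb probe was dim (6.75 in WT livers on the scale common to tissues), and limma called 0 of the 8 tested in the 3 comparisons with controls. All CR, Fast and AL arrays lay on chip 1, FGF21-Tg and WT replicate 3 on chip 5, and the other WT arrays on chip 4.

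A gene was tested in liver where its brightest probe was detected on at least 3 arrays, which 29 of the 40 genes passed. It was called where limma gave an adjusted p under 0.1 over all 8902 genes tested and a change over 2-fold. In FGF21-Tg livers 5 of the 29 were called, 3 higher and 2 lower than in WT livers, against 1.67% of all genes tested (0.876% higher and 0.798% lower). In CR livers 9 were called, 6 higher and 3 lower than in AL livers, against 8.55% of all genes (3.65% higher and 4.9% lower). In Fast livers 7 were called, 3 higher and 4 lower than in AL livers, against 5.46% of all genes (2.25% higher and 3.21% lower). The higher calls of each comparison include Cyp2c38 and Cyp2c39, which passed the detection filter mainly through the groups in which they were high. The lower calls of each comparison include Cyp2u1, which passed it mainly through the WT and AL groups, in which it was high. The part of these genes in the counts is a description only. The median log2 change of the 29 genes was 0.08 for FGF21-Tg, -0.02 for CR and -0.09 for fasting, beside 0.0015, 6e-04 and -6e-04 over all genes. CR and fasting share their AL arrays, and their values are given side by side only. As a measure of how far untreated groups differ, WT and AL livers, on different chips, gave 0 calls among the 29 genes by limma and 2 at an unadjusted p under 0.05 (Cyp2a5 at -0.83 and Cyp2u1 at 0.62), while 1.51% of all genes were called.

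**Figure D1:**
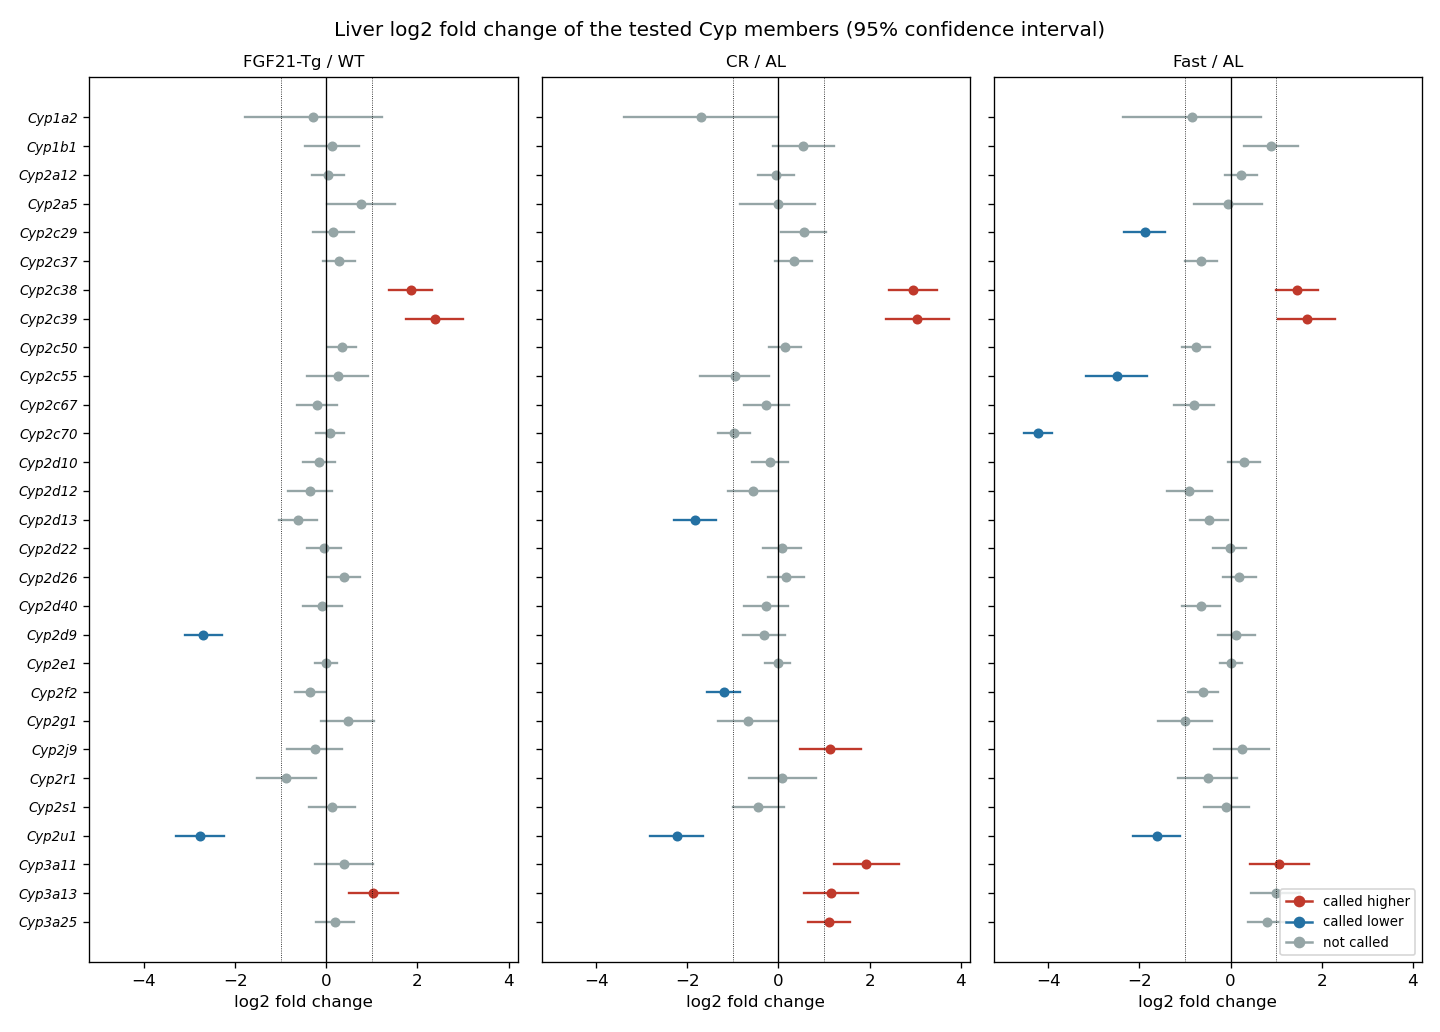
Log2 fold change in liver of the 29 tested Cyp genes in FGF21-Tg over WT, CR over AL and Fast over AL, with 95% confidence intervals; dotted lines mark 2-fold. Called genes number 5, 9 and 7 in the panels from left to right; the largest change is Cyp2c70 on fasting, at -4.23.

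A pair of genes on chromosome 19, Cyp2c38 and Cyp2c39, had dim signals in WT and AL livers and higher ones in FGF21-Tg, CR and Fast livers. They encode Cyp2c enzymes of arachidonic acid and retinoic acid metabolism. In GRCm38.p6 Cyp2c38 lies at chr19:39389556-39463103 on the minus strand, within the span that RefSeq gives Cyp2c39 (chr19:39347346-39569568, plus strand). Cyp2c38 had log2 signals of 7.27, 7.98 and 7.41 in FGF21-Tg livers, against 5.68, 5.61 and 5.83 in WT livers. Its signals were 8.46 and 9.05 in CR livers and 7.44, 7.20 and 7.13 in Fast livers, against 5.59, 5.66 and 6.14 in AL livers. Every treated array lay above every control array. The change was 1.85 ± 0.22 (log2, SE, adjusted p 0.000257) in FGF21-Tg livers, which is at least 3.05-fold because no WT array detected the gene. It was 2.96 ± 0.24 (adjusted p 5.23e-06) in CR livers and 1.46 ± 0.22 (adjusted p 0.000552) in Fast livers.

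Cyp2c39 lay at 6.54, 8.07 and 7.65 in FGF21-Tg livers, against 5.17, 4.94 and 5.02 in WT livers. CR livers had 8.45 and 8.32 and Fast livers 6.84, 7.13 and 7.04, against 5.08, 5.57 and 5.36 in AL livers. All 8 treated arrays detected Cyp2c39 and none of the 6 WT and AL arrays did, so the gene passed the detection filter only through the groups in which it was high. Cyp2c38 was detected on all 8 treated arrays and on 1 control array, AL replicate 3. Genes that pass a filter in this way are bound to differ, so the calls of both are given as a description. The measured changes were 2.38 ± 0.29 in FGF21-Tg livers (adjusted p 0.000355), 3.05 ± 0.32 in CR livers (adjusted p 3.87e-05) and 1.67 ± 0.29 in Fast livers (adjusted p 0.00179). As bounds against the lowest detected signal they were at least 2.77-fold, 5.52-fold and 2.12-fold. FGF21-Tg replicate 1 was the lowest of its group. These are dim probes, and the size of the change depends on the background: in FGF21-Tg livers the deposited log2 values gave 0.13 for Cyp2c38 (adjusted p 0.0815) and 0.15 for Cyp2c39 (adjusted p 0.022), under 2-fold. On chip 5 alone, with 1 WT array, they gave 1.73 and 2.40, and neither call was kept.

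The upstream sequences of the pair resemble each other, and they are shown because Cyp2c38 and Cyp2c39 moved together while Cyp2c29, from the same cluster, fell on fasting. RefSeq starts (GRCm38.p6) gave 300-base windows, 250 bases before to 50 after a start, for 34 of the 40 genes. In a global alignment the Cyp2c38 window matched the Cyp2c39 window shown at 78.1% of aligned positions, and that of a later Cyp2c39 start at 73.6%. Cyp2c29 matched the Cyp2c39 window shown at 76%, the later Cyp2c39 window at 70.6% and Cyp2c38 at 71.1%. The windows of Cyp2c37 and Cyp2c50 matched at 86.6%, so resemblance is not particular to the pair. Capitals mark TATAAA, the TATA box, and AGGTCA, the hexamer that nuclear receptors bind, on either strand; the motifs do not overlap here.
Cyp2c38 (chr19:39463026-39463325, minus strand): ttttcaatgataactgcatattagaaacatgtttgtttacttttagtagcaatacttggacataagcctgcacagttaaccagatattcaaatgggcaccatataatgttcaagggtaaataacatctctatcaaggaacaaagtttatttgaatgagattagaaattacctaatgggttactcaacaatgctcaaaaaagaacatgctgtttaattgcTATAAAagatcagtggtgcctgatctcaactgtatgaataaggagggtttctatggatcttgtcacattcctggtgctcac
Cyp2c39 (chr19:39347096-39347395, plus strand): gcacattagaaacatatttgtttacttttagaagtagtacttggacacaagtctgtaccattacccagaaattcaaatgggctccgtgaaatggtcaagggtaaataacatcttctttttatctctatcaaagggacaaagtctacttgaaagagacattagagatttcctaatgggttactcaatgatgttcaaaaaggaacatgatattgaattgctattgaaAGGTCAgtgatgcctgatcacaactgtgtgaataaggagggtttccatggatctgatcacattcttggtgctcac
Cyp2c29 (chr19:39286835-39287134, plus strand): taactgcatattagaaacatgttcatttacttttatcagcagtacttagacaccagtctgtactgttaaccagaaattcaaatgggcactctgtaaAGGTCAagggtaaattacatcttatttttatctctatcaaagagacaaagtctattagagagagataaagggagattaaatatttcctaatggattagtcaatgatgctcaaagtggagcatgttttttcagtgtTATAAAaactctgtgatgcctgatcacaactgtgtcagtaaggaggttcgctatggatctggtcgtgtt
TATAAA began 31 bases before the start in Cyp2c38 and 19 in Cyp2c29, and was not in the Cyp2c39 window shown. The window of a later Cyp2c39 start that RefSeq lists (chr19:39510572-39510871) holds it, 3 bases before that start. AGGTCA began 25 bases before the start in Cyp2c39 and 154 in Cyp2c29. Among the 37 windows of the Cyp genes 22 held TATAAA (59.5%) and 11 AGGTCA (29.7%), against 13.6% and 16.3% of 32851 windows of all genes. The sequence TTCNNNGAA, of the type that STAT proteins bind, was in 1 of the 37 windows and in 8.3% of all, and GCGTG, the core that Ahr binds, in 6 and in 32.4% of all. Both strands were searched.

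Fasting lowered 3 other Cyp2c genes, with Cyp2c70 the most. Cyp2c70 encodes the enzyme that makes muricholic acids, the main bile acids that mice have and humans lack. It lay at 11.07, 10.95 and 11.23 in Fast livers, against 15.28, 15.40 and 15.25 in AL livers. The groups were far apart, and the log2 change was -4.23 ± 0.14 (adjusted p 8.84e-10), or 18.7-fold lower. CR livers had 14.36 and 14.30, a change of -0.98 ± 0.16 (adjusted p 0.000991) that fell just short of 2-fold and passed it without CR replicate 1 (-1.01) or AL replicate 3 (-1.01). FGF21-Tg livers had 15.25, 15.53 and 15.13, against 15.12, 15.33 and 15.21 in WT livers, and these groups overlapped.

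Cyp2c29, which converts arachidonic acid to epoxides, had 10.84, 10.88 and 10.65 in Fast livers, against 12.57, 12.46 and 12.98 in AL livers. The change was -1.88 ± 0.21 (adjusted p 5.47e-05), or 3.69-fold lower. The CR arrays, at 13.18 and 13.26, lay above the AL arrays, with a change of 0.55 ± 0.23 (adjusted p 0.117). In FGF21-Tg livers Cyp2c29 had 12.64, 12.67 and 12.06, against 12.66, 12.08 and 12.15 in WT livers. Cyp2c55, another arachidonic acid hydroxylase of this subfamily, lay at 4.996, 4.943 and 4.754 in Fast livers, where no array detected it, against 6.96, 7.61 and 7.61 in AL livers. The measured change was -2.50 ± 0.31 (adjusted p 0.00015), a fall of at least 2.63-fold. In CR livers Cyp2c55 had 6.00 and 6.87 (-0.96 ± 0.35, adjusted p 0.0703), and in FGF21-Tg livers 8.62, 7.97 and 7.48, against 7.89, 8.15 and 7.29 in WT livers.

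The other tested Cyp2c genes, Cyp2c37, Cyp2c50 and Cyp2c67, were detected on all 14 liver arrays and were called in none of the 3 comparisons. On fasting they gave -0.65 ± 0.17, -0.76 ± 0.15 and -0.81 ± 0.20, with adjusted p of 0.0197, 0.00368 and 0.0186, under the 2-fold limit. For each of them the 3 Fast arrays lay below the AL arrays. A dimmer probe of Cyp2c37 was called higher in CR livers (2.18 ± 0.46, adjusted p 0.00502) where the main probe gave 0.33 ± 0.19. A second probe of Cyp2c67 was called lower in Fast livers (-1.28 ± 0.23, adjusted p 0.00238). Near-identical members of such clusters can share probe signal, and the annotation used holds no probe sequence to check it.

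**Figure D2:**
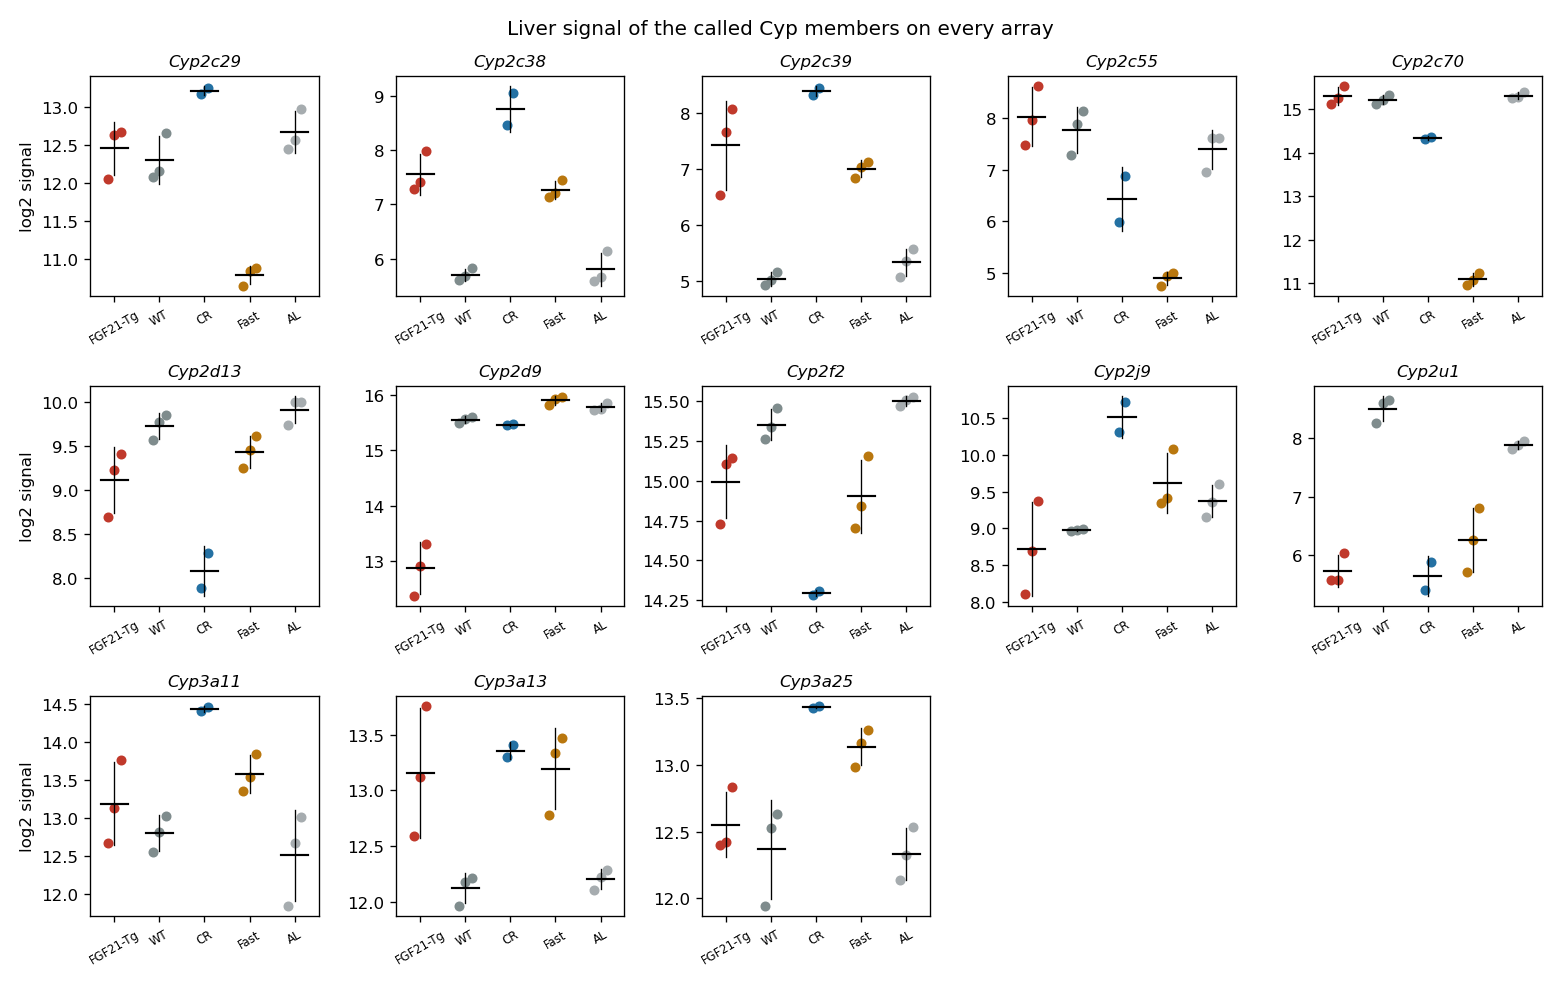
Log2 signal in liver of the 13 Cyp genes called in at least 1 comparison, a point for each array, with the group mean (horizontal bar) and SD (vertical line); each panel has its own scale, which does not start at 0. Cyp2c38 and Cyp2c39 are higher and Cyp2u1 is lower in FGF21-Tg, CR and Fast than in WT and AL, while Cyp2d9 is low in FGF21-Tg alone.

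In the Cyp2d subfamily, 7 of 8 genes were tested and 2 were called. Cyp2d9 encodes a testosterone hydroxylase that male mouse livers make and that depends on growth hormone. It lay at 13.31, 12.91 and 12.37 in FGF21-Tg livers, against 15.61, 15.57 and 15.49 in WT livers. Every FGF21-Tg array was below every WT array, with a change of -2.70 ± 0.19 (adjusted p 1.66e-06), or 6.48-fold lower. Cyp2d9 had 15.46 and 15.48 in CR livers and 15.82, 15.97 and 15.93 in Fast livers, against 15.73, 15.76 and 15.87 in AL livers. The changes there were -0.32 ± 0.21 (adjusted p 0.327) and 0.12 ± 0.19 (adjusted p 0.738), and the Fast mean lay near the top of the scale, which would compress an increase. On chip 5 alone, where WT replicate 3 is the only control, Cyp2d9 gave -2.63, and its call was not kept. The start of Cyp2d9 is shown because it was the gene called in FGF21-Tg livers and in neither diet group; TATAAA, read on the opposite strand, begins 28 bases before the start and is in capitals.
Cyp2d9 (chr15:82452127-82452426, plus strand): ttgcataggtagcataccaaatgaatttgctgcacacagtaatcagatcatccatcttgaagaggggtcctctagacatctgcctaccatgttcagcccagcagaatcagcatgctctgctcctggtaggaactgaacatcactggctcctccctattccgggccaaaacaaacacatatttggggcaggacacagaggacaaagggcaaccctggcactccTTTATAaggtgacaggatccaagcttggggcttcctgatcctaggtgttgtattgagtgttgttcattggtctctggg

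Cyp2d13, which RefSeq lists as a transcribed pseudogene, fell in CR livers. Its signals there were 7.88 and 8.28, against 10.002, 9.738 and 10.004 in AL livers, a change of -1.84 ± 0.22 (adjusted p 8.98e-05) with no overlap. Fast livers had 9.61, 9.45 and 9.25 (-0.48 ± 0.19, adjusted p 0.13). FGF21-Tg livers had 9.41, 9.23 and 8.69, against 9.77, 9.85 and 9.57 in WT livers (-0.62 ± 0.19, adjusted p 0.114). Cyp2d10, Cyp2d12, Cyp2d22, Cyp2d26 and Cyp2d40 were called in none of the 3 comparisons, with log2 changes from -0.90 to 0.39. Cyp2d12 was detected on 3 of the 14 arrays only.

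Cyp2u1 was the only tested gene called lower in all 3 comparisons. Its enzyme hydroxylates long-chain fatty acids. The gene was detected on 9 of the 14 liver arrays, mainly those of the WT and AL groups, in which it was high. Its calls are therefore a description, like those of Cyp2c38 and Cyp2c39. Cyp2u1 had 6.05, 5.59 and 5.57 in FGF21-Tg livers, against 8.64, 8.61 and 8.26 in WT livers, a change of -2.77 ± 0.24 (adjusted p 1.33e-05). It had 5.89 and 5.41 in CR livers, where no array detected it, and 6.26, 6.81 and 5.71 in Fast livers, against 7.96, 7.88 and 7.82 in AL livers. The CR change was -2.24 ± 0.27 (adjusted p 0.000117), at least 4.03-fold, and the Fast change -1.62 ± 0.24 (adjusted p 0.000563). No treated array reached the lowest control array. The treated signals were dim, and the size of the change depends on the background. With the deposited log2 values none of the 3 calls of Cyp2u1 was kept, and its FGF21-Tg change was -0.26. The CR and Fast calls were also lost without background correction. Cyp2d9 and Cyp2u1 made up the list of male-predominant members, chosen with these results known, so their fall together in FGF21-Tg livers is a description. Of the female-predominant list 4 genes were on the array (Cyp2c40, Cyp3a16, Cyp3a41a and Cyp3a44) and 0 passed the detection filter in liver.

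All 3 tested Cyp3a genes rose in CR livers. Cyp3a11, the major drug-metabolizing Cyp3a enzyme of mouse liver and a target of PXR, had 14.40 and 14.46 in CR livers and 13.84, 13.36 and 13.53 in Fast livers, against 11.843, 12.666 and 13.005 in AL livers. The changes were 1.93 ± 0.33 (adjusted p 0.0014) in CR and 1.07 ± 0.30 (adjusted p 0.0292) in Fast livers. AL replicate 1 was the lowest array, and without it the Fast change was 0.74 (adjusted p 0.131) and no longer called, nor was it without Fast replicate 1 (0.94). FGF21-Tg livers had 13.12, 13.76 and 12.67, against 12.55, 12.82 and 13.02 in WT livers, and overlapped them (0.39 ± 0.30, adjusted p 0.55).

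Cyp3a13, a Cyp3a gene that liver and intestine both express, had 13.12, 12.59 and 13.76 in FGF21-Tg livers, against 11.96, 12.21 and 12.18 in WT livers. CR livers had 13.30 and 13.41 and Fast livers 13.33, 12.78 and 13.47, against 12.22, 12.10 and 12.29 in AL livers. Each treated array lay above its controls. The change was 1.03 ± 0.25 (adjusted p 0.0431) in FGF21-Tg livers and 1.15 ± 0.28 (adjusted p 0.0111) in CR livers, both called, and 0.99 ± 0.25 (adjusted p 0.018) in Fast livers, just under 2-fold. The FGF21-Tg call of Cyp3a13 was lost without WT replicate 1 (0.96), WT replicate 2 (1.08) or FGF21-Tg replicate 3 (0.73), with the chip as a block (0.97), with a fit of the FGF21-Tg and WT arrays only (adjusted p 0.169) and with SAM (adjusted p 0.18). The other probes of Cyp3a13 were not called in FGF21-Tg livers, at 0.66 ± 0.29 (adjusted p 0.269) and 0.74 ± 0.19 (adjusted p 0.0633). In Fast livers the other probes of Cyp3a13, at 1.43 ± 0.29 and 1.11 ± 0.19, were called, and the main probe was too without Fast replicate 2 (1.20) or AL replicate 3 (1.03). Cyp3a25 had 13.44 and 13.43 in CR livers and 13.26, 12.98 and 13.16 in Fast livers, against 12.14, 12.53 and 12.32 in AL livers. It was called in CR livers (1.10 ± 0.22, adjusted p 0.00329), with 0.80 ± 0.19 (adjusted p 0.0146) in Fast livers and 0.18 ± 0.19 (adjusted p 0.682) in FGF21-Tg livers.

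The Cyp2f and Cyp2j subfamilies gave 2 calls, both in CR livers. Cyp2j9, an arachidonic acid hydroxylase studied mainly in brain, had 10.31 and 10.72 in CR livers, against 9.37, 9.16 and 9.60 in AL livers (1.14 ± 0.31, adjusted p 0.0205). The call was lost without CR replicate 2 (0.93, adjusted p 0.181). Cyp2f2, known for activating naphthalene in mouse airways, had 14.31 and 14.28 in CR livers, against 15.47, 15.53 and 15.51 in AL livers (-1.21 ± 0.17, adjusted p 0.000374). Its Fast signals of 15.16, 14.71 and 14.84 were also below all AL arrays (-0.60 ± 0.15, adjusted p 0.02). The FGF21-Tg signals of Cyp2f2, 15.15, 15.11 and 14.73, lay below 15.34, 15.26 and 15.46 in WT livers (-0.36 ± 0.15, adjusted p 0.244).

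Cyp2a5, the coumarin hydroxylase, had 13.85, 15.48 and 14.62 in FGF21-Tg livers, against 13.41, 14.18 and 14.08 in WT livers (0.76 ± 0.34, adjusted p 0.268). The groups overlapped, FGF21-Tg replicate 1 was the lowest of its group, and without it the gene was called (1.16, adjusted p 0.0728). Another probe of Cyp2a5 was called with all arrays (1.44 ± 0.36, adjusted p 0.0542). Cyp2a5 signals in CR livers, 14.59 and 14.81, and in Fast livers, 14.30, 15.20 and 14.49, were spread around the AL signals of 14.58, 14.76 and 14.81. Cyp2e1, which oxidizes ethanol and acetone, lay between 15.96 and 16.05 on all liver arrays, at the upper end of the scale, where changes in level would be compressed; its changes of -0.01, -0.01 and 0.01 are no measure of stability.

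The Cyp1a genes were set apart by 1 array. Cyp1a2, which metabolizes caffeine and is, with Cyp1a1, a standard target of Ahr, had 11.67, 15.52 and 11.91 in Fast livers, against 13.83, 14.03 and 13.77 in AL livers. Fast replicates 1 and 3 were below every AL array and Fast replicate 2 was above them all. With all arrays the change was -0.84 ± 0.70 (adjusted p 0.496), and without Fast replicate 2 it was -2.09 ± 0.22 (adjusted p 8.5e-05). Among 8902 genes tested, Cyp1a2 had the largest excess in Fast replicate 2 over the mean of the other Fast arrays, 3.73 on the log2 scale, and 171 genes (1.92%) differed over 2-fold there in either direction. No other tested Cyp gene differed by more than 2-fold on that array. Cyp1a1 was detected on that array alone of the 14 in liver, at 7.46, against 5.34, 4.81 and 5.20 on the AL arrays and 5.13 and 4.96 on the other Fast arrays. Nqo1, another Ahr target, looked up after these values were seen, had 6.36, 7.70 and 6.78 on the Fast arrays, while Tiparp, Ahrr and Aldh3a1 were not detected on Fast replicate 2. In CR livers Nqo1 had 7.27 and 6.75, against 5.27, 6.08 and 5.90 in AL livers, so it was not raised on that Fast array alone. The brightest Ahr probe was detected on no liver array.

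Cyp1a2 had 12.26 and 12.08 in CR livers, below all AL arrays, with a change of -1.71 ± 0.78 (adjusted p 0.148); the SE carries the spread of the Fast arrays, which share the fit, and a fit of CR and AL arrays alone called the gene. FGF21-Tg livers had 13.95, 13.83 and 13.34, against 13.85, 13.78 and 14.34 in WT livers, and these overlapped.

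**Figure D3:**
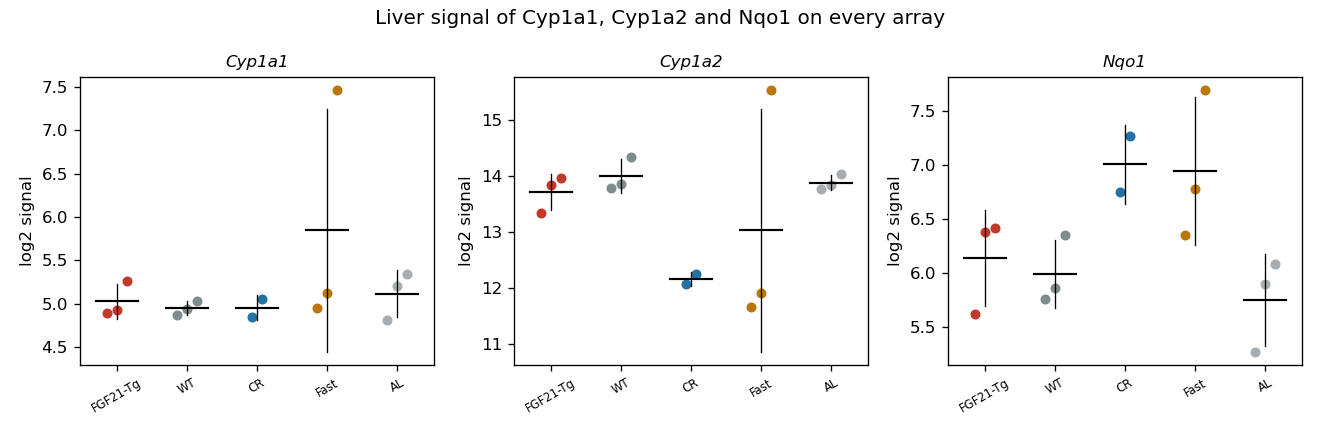
Log2 signal in liver of Cyp1a1, Cyp1a2 and Nqo1, a point for each array, with the group mean (horizontal bar) and SD (vertical line); scales do not start at 0. Fast replicate 2 is the highest array in each panel, at 7.46, 15.52 and 7.70.

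Whether the effect of the transgene differed from that of each diet was tested by the difference of the changes, which share no arrays. FGF21-Tg minus CR passed for 6 of the 29 genes, 2 positive and 4 negative, against 7.38% of all genes (4.67% positive and 2.71% negative). The difference was -2.38 ± 0.28 for Cyp2d9 (adjusted p 0.000578), 1.22 ± 0.29 for Cyp2d13 (adjusted p 0.028) and 1.06 ± 0.21 for Cyp2c70 (adjusted p 0.0125). For Cyp2c38, Cyp3a11 and Cyp2j9 it was -1.11 ± 0.33, -1.54 ± 0.45 and -1.39 ± 0.42, with adjusted p of 0.0566, 0.0533 and 0.0596. No WT array detected Cyp2c38, so its FGF21-Tg effect is a lower bound, and its difference is given as a description only. Leaving out either CR array took the count of called differences to 3. Of the 6, Cyp2d13 was lost without CR replicate 1 (1.02), Cyp2c70 without FGF21-Tg replicate 2 (0.94), Cyp3a11 without either CR array or FGF21-Tg replicate 3, and Cyp2c38 and Cyp2j9 on leaving out each of 5 and 6 arrays, while Cyp2d9 was lost with none. Cyp3a25 (-0.92 ± 0.29, adjusted p 0.0729) passed 2-fold without AL replicate 2, WT replicate 1 or FGF21-Tg replicate 2 (-1.02 to -1.13), and Cyp2c55 (1.21 ± 0.47, adjusted p 0.136) was called without FGF21-Tg replicate 3 (1.48). With the chip as a block 3 of the 6 were kept; Cyp2c38 (-1.23, adjusted p 0.117), Cyp2j9 (-1.39, adjusted p 0.163) and Cyp3a11 (-1.77, adjusted p 0.102) were lost, and Cyp3a25 (-1.18, adjusted p 0.0771) was called. Cyp2c39 and Cyp2u1 did not pass, with 95% intervals of -1.61 to 0.26 and -1.32 to 0.25. No WT or AL array detected Cyp2c39 and no CR array detected Cyp2u1, so both intervals depend on the floor of the scale.

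FGF21-Tg minus fasting passed for 7 genes, 5 positive and 2 negative, against 6.72% of all (4.04% positive and 2.67% negative). The differences were 4.31 ± 0.20 for Cyp2c70 (adjusted p 6.94e-08), 2.75 ± 0.44 for Cyp2c55 (adjusted p 0.00255), 2.04 ± 0.29 for Cyp2c29 (adjusted p 0.00115) and 1.10 ± 0.21 for Cyp2c50 (adjusted p 0.0072), all positive. No Fast array detected Cyp2c55, so the size of its difference depends on the floor of the scale, and that of Cyp2g1 likewise. Cyp2g1, a gene best known from olfactory tissue, gave 1.47 ± 0.39 (adjusted p 0.0369), with signals of 6.26, 7.53 and 6.55 in FGF21-Tg and 6.37, 6.12 and 6.44 in WT livers, and of 5.41, 5.34 and 5.53 in Fast livers, where no array detected it, and 6.21, 6.43 and 6.64 in AL livers. The negative differences were -2.82 ± 0.27 for Cyp2d9 (adjusted p 3.63e-05) and -1.14 ± 0.34 for Cyp2u1 (adjusted p 0.0631). Cyp2u1 signals were dim in both FGF21-Tg and Fast livers, so the size of its difference also depends on the floor of the scale. The WT mean of Cyp2u1 lay 0.62 above the AL mean, which enters its difference. The Cyp2u1 difference was lost on leaving out any of 8 arrays, for example -0.87 (adjusted p 0.119) without Fast replicate 2, and with the chip as a block (-0.90, adjusted p 0.269), where 5 of the 7 differences were kept. Cyp2c38 and Cyp2c39 did not pass, with 95% intervals of -0.27 to 1.05 and -0.17 to 1.59, though Cyp2c39 did without FGF21-Tg replicate 1 (1.15, adjusted p 0.0199). Both intervals depend on the floor of the scale, as no WT array detected either gene. Cyp1a2 passed without Fast replicate 2 (1.80, adjusted p 0.00464).

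**Figure D4:**
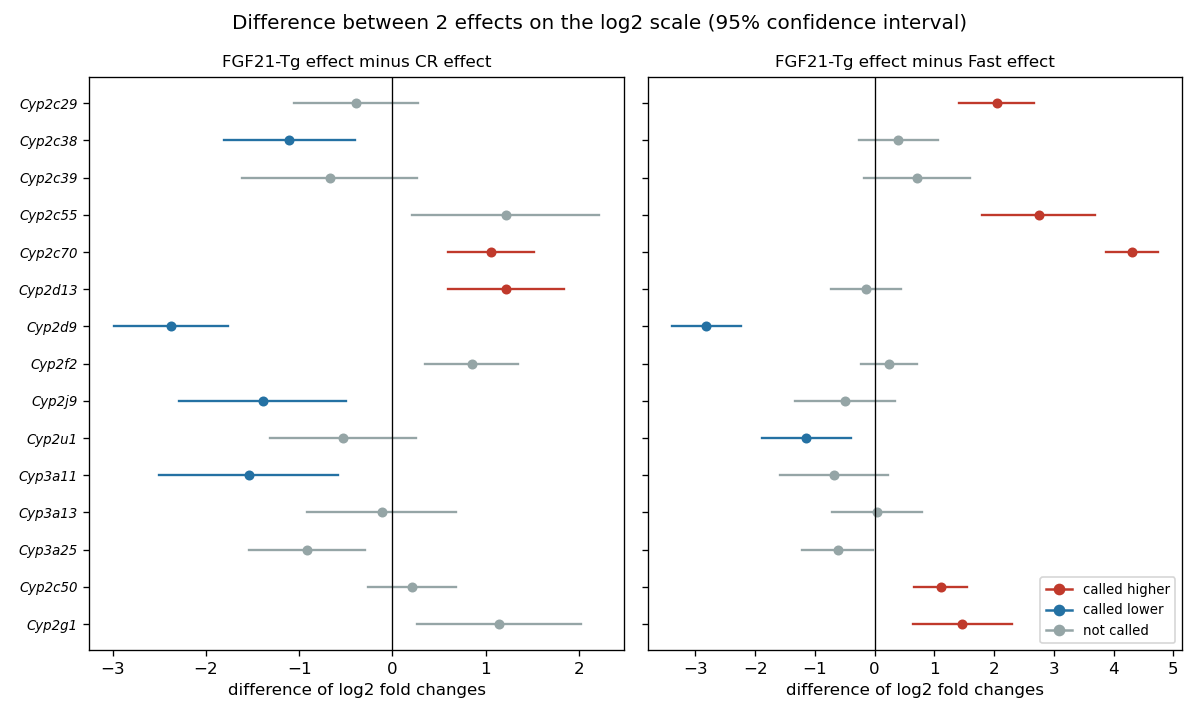
Difference of log2 changes in liver, FGF21-Tg effect minus CR effect (left) and minus Fast effect (right), with 95% confidence intervals, for the 13 called genes with Cyp2c50 and Cyp2g1. Cyp2d9 is lowest in both panels and Cyp2c70, at 4.31, is highest in the right panel.

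Fast livers compared directly with CR livers had 6 of the 29 genes called, 1 higher and 5 lower, against 4.68% of all genes (2.73% higher and 1.95% lower). Cyp2d13 was higher in Fast livers (1.36 ± 0.22, adjusted p 0.00178). Lower in Fast livers were Cyp2c70 (-3.25 ± 0.16, adjusted p 1.17e-07), Cyp2c29 (-2.43 ± 0.23, adjusted p 4.58e-05), Cyp2c38 (-1.499 ± 0.24, adjusted p 0.00197), Cyp2c39 (-1.38 ± 0.32, adjusted p 0.0166) and Cyp2c55 (-1.54 ± 0.35, adjusted p 0.0141). As no Fast array detected Cyp2c55, its fall against CR is only bounded, at 1.35-fold or more. The Cyp2c39 call was lost without CR replicate 1 (adjusted p 0.113) and the Cyp2c55 call without CR replicate 2 (adjusted p 0.193), while Cyp2j9 was called without Fast replicate 2 (-1.13). Restricted mice received a daily ration and were killed close to a day after it. The Fast mice had been without food for a similar time. Hours since food was last given were therefore close in these groups, though the methods do not say when the ration was eaten up. In CR against AL livers, by contrast, restriction and hours since the last meal cannot be told apart.

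Genes that serve or regulate these enzymes were read from lists, by counts and medians. The shares of all genes called were 1.67% in FGF21-Tg, 8.55% in CR and 5.46% in Fast livers. The lists are short, so counts of 1 or 2 are not read as a result about a list. Of 16 tested regulators of P450 genes 1 was called higher in FGF21-Tg livers, 2 higher and 1 lower in CR livers, and 2 higher in Fast livers, with medians of 0.11, 0.29 and 0.13. Ppargc1a, a coactivator of nuclear receptors, rose in all 3 (1.31, 2.97 and 1.88). Nr1i2, which encodes PXR, rose in CR livers (1.34 ± 0.22), and Nr1i3, which encodes CAR, in Fast livers (1.46 ± 0.22). Cebpa, a hepatocyte transcription factor, fell in CR livers (-1.57 ± 0.35). Of 8 tested genes of growth hormone signalling and sex-dependent control 0 were called in FGF21-Tg livers by limma, while CR livers had 1 higher and 3 lower and Fast livers 4 lower. Ghr, the growth hormone receptor, fell in CR (-1.86 ± 0.17) and Fast livers (-1.22 ± 0.15). Cux2, a repressor that female mouse livers make, rose in CR livers (5.24 ± 0.73), and Bcl6, a repressor of male livers, fell there (-1.99 ± 0.74). The suppressors Cish (-1.53 ± 0.51) and Socs2 (-1.80 ± 0.50), which growth hormone induces, fell in Fast livers. Of 4 tested electron donors, Cyb5b (-1.57 ± 0.17) and Cyb5r3 (-1.58 ± 0.17) fell in Fast livers. Of 9 tested genes of haem supply 1 was called, Cpox, higher in Fast livers (1.401 ± 0.20).

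Some markers of position and of other cells were called in the same livers. The shares of all genes called there were 1.67% in FGF21-Tg, 8.55% in CR and 5.46% in Fast livers. Pericentral hepatocyte markers had 5 of 10 lower in CR livers (median -0.97, with Glul at -2.11), 1 lower in Fast and 0 called in FGF21-Tg livers, with summed levels of 15.12 to 15.53 in FGF21-Tg, 15.55 to 15.77 in WT, 15.00 to 15.09 in CR, 15.96 to 16.06 in Fast and 15.43 to 15.73 in AL livers. Periportal markers had 2 higher and 1 lower of 9 in CR livers, 2 higher in Fast and 1 higher in FGF21-Tg livers. Of 8 macrophage markers 2 were lower in CR and 3 in Fast livers, with summed levels of 13.36 to 14.27 in FGF21-Tg, 13.17 to 13.28 in WT, 12.30 to 12.49 in CR, 11.80 to 12.67 in Fast and 12.64 to 13.35 in AL livers. Of 4 erythroid markers 3 were lower in CR and 1 each in Fast and FGF21-Tg livers. Of 7 markers of hepatic stellate cells and fibroblasts 1, Col3a1, was lower in CR (-2.02) and Fast livers (-1.53), and 0 were called in FGF21-Tg livers, though their summed level was 14.04 to 14.39 in FGF21-Tg livers, against 13.49 to 13.64 in WT livers. Of 3 adipocyte markers 1, Cidec, was higher in Fast livers (5.24) and 2 were not called, with a median of 0.14. Their summed level, which 1 gene can carry, was 11.06 to 11.48 in Fast livers, against 8.99 to 9.37 in AL livers. In these bulk samples fewer cells of a type and less RNA per cell cannot be told apart, and the part of such shifts in the Cyp values was not tested.

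On a scale common to the tissues, 27 of the 40 genes had their highest WT mean in liver. The count includes differences at the floor, as for Cyp2d34 (5.23, 5.02 and 4.95 in liver, muscle and eWAT), which no array detected, and for Cyp2c38, which no WT array detected. It also includes the near ties of Cyp2e1 and Cyp2j9 between liver and eWAT. The brightest probe was detected on no array for 23 genes in muscle and for 24 in eWAT. Cyp1b1, which hydroxylates estradiol and is expressed in mesenchymal cells, averaged 10.47 ± 0.38 in WT eWAT (SD, n = 3), above 5.81 ± 0.30 in liver and 5.94 ± 0.21 in muscle. Cyp2s1 averaged 7.09 ± 0.81 in eWAT, 5.58 ± 0.47 in liver and 5.39 ± 0.12 in muscle. Cyp2e1 was at the upper end of the scale in both liver (15.98) and eWAT (15.96), and lay at 10.38 ± 0.50 in muscle. Cyp2j9 did not separate liver (9.14 ± 0.01) from eWAT (9.13 ± 0.38), with 7.63 ± 0.17 in muscle. Cyp2f2 and Cyp2d22 were highest in liver (15.23 and 13.67), lower in eWAT (10.20 and 10.74) and lowest in muscle (7.67 and 8.78). FGF21-Tg against WT gave 0 calls among 6 genes tested in muscle, where 0.4% of all genes were called, and 0 among 8 tested in eWAT, where 0.104% were; at an unadjusted p under 0.05 there were 2 in muscle (Cyp1b1 and Cyp2j9) and 1 in eWAT (Cyp2d22).

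**Figure D5:**
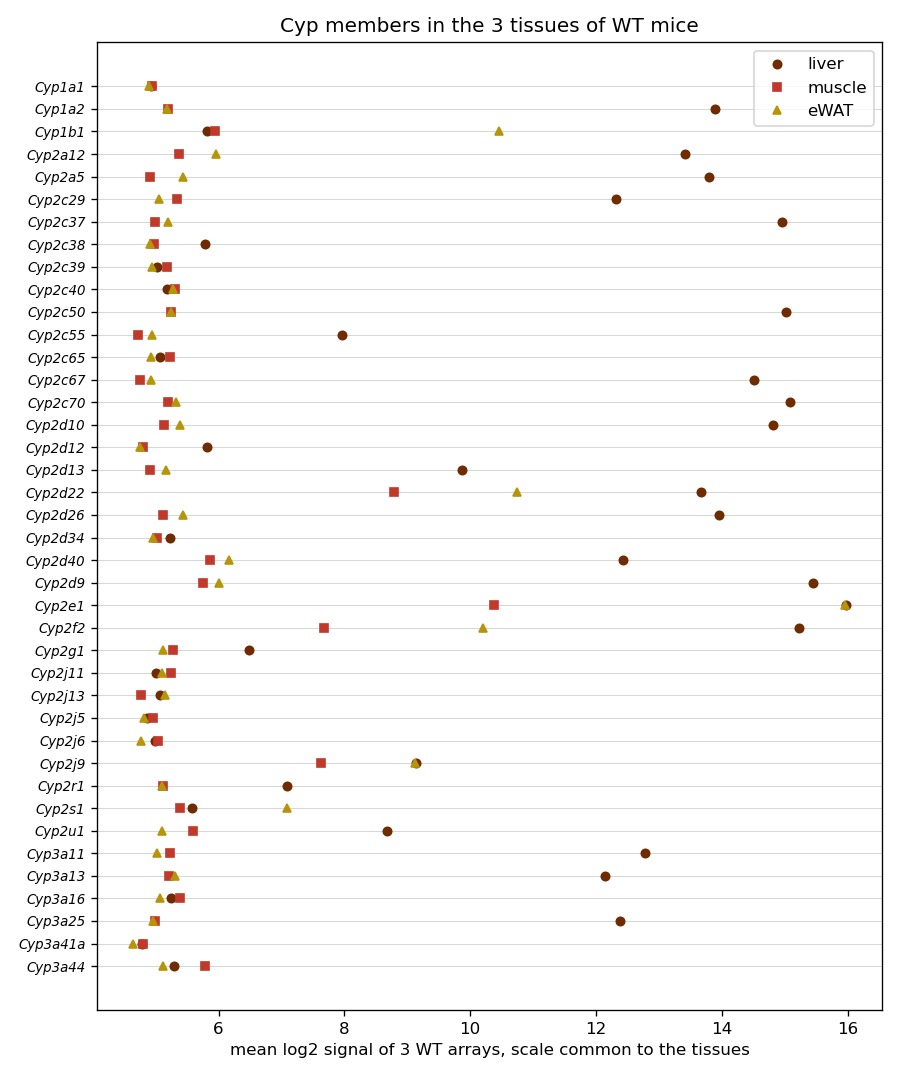
Mean log2 signal of each of the 40 Cyp genes in liver, muscle and eWAT of WT mice (3 arrays each), on a scale common to the tissues; genes are listed by name and levels are read within a row. Liver is highest in 27 rows, some of them by differences at the floor or by near ties, and Cyp1b1 stands out in eWAT at 10.47.

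The 11 genes not tested in liver were Cyp1a1, Cyp2c40, Cyp2c65, Cyp2d34, Cyp2j5, Cyp2j6, Cyp2j11, Cyp2j13, Cyp3a16, Cyp3a41a and Cyp3a44. Of these 9 were detected on no liver array, Cyp1a1 on Fast replicate 2 and Cyp2c40 on 1 AL array. The tested genes not yet given, Cyp1b1, Cyp2a12, Cyp2r1 and Cyp2s1, were called in none of the 3 comparisons. Cyp2r1, a vitamin D hydroxylase, lay at 5.86, 5.81 and 6.37 in FGF21-Tg livers, below 6.84, 7.25 and 6.58 in WT livers (-0.88 ± 0.30, adjusted p 0.151), and Cyp1b1 at 6.61, 6.75 and 6.72 in Fast livers, above 6.26, 5.85 and 5.33 in AL livers (0.88 ± 0.28, adjusted p 0.0502, under 2-fold).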

How the data were processed

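The authors deposited unnormalized signal intensities from BeadStudio (version not given in the sources used here), the mean bead signal of each probe, and a detection p-value beside each deposited intensity. A table of log2 values, background corrected and quantile normalized by the authors, was used as an alternative. Intensities were corrected with limma 3.58.1 in R 4.3.3 (normexp from detection p-values, offset 16), quantile normalized within a tissue and log2 transformed. Each gene was tested by its brightest probe with detection p under 0.05 on at least 3 arrays. One group mean per arm was fitted with empirical Bayes, and p-values were adjusted by Benjamini-Hochberg over all genes. Genes called in a comparison with controls were named with all their values, and so was the brightest tested gene of each listed subfamily with no call. The genes, lists and tests were chosen with earlier results of these data known. Replicate numbers did not pair arrays: 1 of 26 same-number pairs had a correlation over 0.1. The limma and SAM tests were also run on simulated data, drawn from the liver means and spreads of these arrays. The number of arrays limits the precision, and p-values measure spread between arrays. The alternatives tried are given with their effects in the closing section.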

Additional observations from a re-analysis of the deposited data

Results flagged for a closer look

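The FGF21-Tg effect on Cyp2d9 in liver (-2.61) minus that in eWAT (0.27) was -2.88 on the log2 scale, with an adjusted p of 0.000892 by limma over 8127 genes tested in both. The WT mean of Cyp2d9 in eWAT was 6.01 on the scale common to tissues, near the floor of detection, so a fall of the size seen in liver could not be measured there, and the difference does not bear on whether the effect is particular to liver. On WT eWAT replicate 2, 6 of 9 hepatocyte markers were detected and their summed level was 11.83 (log2), against 8.36 to 8.75 on the other eWAT arrays; its part in the Cyp2d9 values was not tested. For Cyp2d22 the liver effect (-0.04) minus the eWAT effect (1.06) was -1.11 (adjusted p 0.00721), with eWAT signals of 11.58, 12.16 and 12.13 in FGF21-Tg, against 11.03, 10.89 and 11.27 in WT; within eWAT alone the change of 0.89 had an adjusted p of 0.299. FGF21-Tg replicate 1 shared chip 5 with the WT eWAT arrays, and the other FGF21-Tg arrays were on chip 6. This tissue difference was added after the data were seen, and 14 such differences were tested.

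Some genes that were not tested in a tissue were detected on treated arrays and on no control array there. In liver this was Cyp1a1 on Fast replicate 2, at 7.46. In muscle, FGF21-Tg replicate 3 accounted for Cyp1a2 (6.07), Cyp2a12 (6.00), Cyp2c37 (6.53), Cyp2c50 (6.79), Cyp2c70 (6.93), Cyp2d10 (6.15) and Cyp3a13 (6.26). On that array 7 of 9 hepatocyte markers were detected and their summed level was 12.43 (log2), against 8.29 to 8.66 on the other 11 muscle arrays; its part in the values was not tested. Cyp2a12 was also detected on FGF21-Tg muscle replicate 2 (5.67), and Cyp2s1 on FGF21-Tg replicate 1 (6.01) and Fast replicate 3 (5.87). In eWAT, Cyp2j13 lay at 9.11, 6.15 and 5.26 on the FGF21-Tg arrays, against 5.29, 4.89 and 5.41 on the WT arrays. Cyp2j11 was detected there on FGF21-Tg replicate 1 (7.02), with 5.64 and 5.43 on the others, against 5.17, 5.06 and 5.13 in WT.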

How the results depend on the processing

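The counts of called Cyp genes in the main fit were 5 (FGF21-Tg), 9 (CR), 7 (Fast), 6 (FGF21-Tg minus CR), 7 (FGF21-Tg minus fasting) and 6 (Fast against CR). With all arrays as labelled they were 1, 12, 2, 0, 1 and 5 in the same order. The shares of all genes called were then 0.523%, 13.2%, 2.58%, 2.48%, 1% and 9.31%. Of the 12 for CR 1 was higher and 11 lower, and 3 of the 9 were kept. Of the 5 for Fast against CR 5 were higher and 0 lower by limma, and 1 of the 6 was kept. With the deposited log2 values the counts were 2, 4, 3, 3, 4 and 2 in the order above. The shares of all genes were 0.562%, 2.3%, 1.64%, 1.64%, 1.66% and 1.4%. Without background correction the counts were 3 for FGF21-Tg, 4 for Fast and 2 for Fast against CR. The shares of all genes were 0.887%, 2.58% and 2.17%. On chip 5 alone, with 1 WT array as control, most of the FGF21-Tg calls were not kept. With no fold threshold Fast gave 17, against 17.9% of all genes, and Fast against CR 10, against 17%. An adjusted p under 0.05 gave 3 for FGF21-Tg minus CR, against 5.52% of all genes. With 1 array left out, the shares of all genes called were 1.3% to 2.3% (FGF21-Tg), 4.97% to 6.19% (Fast) and 5.5% to 7.95% (FGF21-Tg minus fasting). With 1 array other than CR left out they were 8.47% to 9.03% (CR), 6.22% to 9.33% (FGF21-Tg minus CR) and 4.48% to 5.34% (Fast against CR). Leaving out 1 array gave 4 to 6 (FGF21-Tg), 9 to 11 (CR), 6 to 9 (Fast), 3 to 6 (FGF21-Tg minus CR), 5 to 8 (FGF21-Tg minus fasting) and 5 to 8 (Fast against CR), and 0 for WT against AL and for FGF21-Tg in muscle and eWAT. Among called results of named genes signs turned with all arrays as labelled, where CR replicates 3 and 4 enter, and under no other alternative; turned signs of values that were not called are not counted here. They turned to -2.47 for Cyp3a11, -2.68 for Cyp3a13 and -2.97 for Cyp3a25 in CR livers, to 0.90 for Cyp2c38, 1.79 for Cyp2d9 and 2.85 for Cyp3a11 in FGF21-Tg minus CR, and to 1.44 for Cyp2c29, 0.51 for Cyp2c38, 0.37 for Cyp2c39 and 0.88 for Cyp2c70 in Fast against CR. The chip as a block gave 4, 9, 7, 4, 5 and 6 calls, against 0.775%, 8.58%, 5.49%, 5.67%, 5.41% and 4.66% of all genes. The replicate block gave 5, 10, 7, 6, 7 and 7 calls, the replicate numbers being no pairing. The shares of all genes were 1.71%, 8.86%, 5.45%, 7.43%, 6.75% and 4.47%. The genes with the highest WT mean in liver numbered 27, and 28 with the deposited values, with differences at the floor and near ties counted. Signals at the floor or the upper end limit low genes and Cyp2e1.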
